A study of Pomacea canaliculata with 12 samples.

Results

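The genes described here were concentrated in the eye stalk of Pomacea canaliculata, a freshwater apple snail. They were chosen from scaled read counts as genes with at least 1 CPM (counts per 1000000 scaled counts) in each of the 3 eye stalk libraries. Their mean in eye stalk also had to be at least 4 times the mean in retina, in cephalic tentacle and in oral tentacle. Of 21131 genes in the table, 197 met this rule, 1.36% of the 14449 genes that reached 1 CPM in every eye stalk library. They are called the eye stalk genes below. Because the eye stalk level chose them, their excess in eye stalk is a description, and nothing is read from its tests.

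The study measured poly(A) RNA in amputated oral tentacle, cephalic tentacle and eye stalk and in extracted retina, with 3 libraries for each tissue. No strain, genotype, age or treatment is given for any of the 4 groups. The labels do not say whether the libraries of a tissue came from separate animals or from pools, nor whether the eye was left on the stalk. The p-values thus reflect only how far these libraries differ, and that difference may be technical.

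Apple snails carry camera-type eyes, with a lens and a retina behind it, on short stalks beside the cephalic tentacles. The stalk is a muscular, skin-covered appendage through which the optic nerve runs, while the tentacles are chemosensory and touch-sensitive appendages. The genes are identified by LOC numbers only and no product name could be paired with them, so no gene is given a function and the tissues could not be checked against marker genes. In whole tissues, fewer cells of a type and less RNA per cell cannot be told apart.

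Library totals ran from 11890390 to 12286896 counts in eye stalk, from 10804847 to 21561988 in the tentacles and from 40794864 to 45673871 in retina. A count of 1 was therefore worth 0.0772 to 0.0816 CPM in eye stalk and 0.0287 to 0.0315 CPM in retina. Among the eye stalk libraries, replicate 3 stood apart for these genes: it held the highest value of 107 of the 197, against 48 for replicate 1 and 42 for replicate 2. Chosen again without eye stalk replicate 3, the rule found 196 genes, of which 141 were among the 197. Without eye stalk replicate 1 or 2 it found 213 and 227 genes, with 176 and 180 of the 197 among them.

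The eye stalk genes were a small share of the transcripts of any tissue. They took 1.53%, 1.58% and 1.68% of the counts in eye stalk replicates 1, 2 and 3, a mean of 1.60 ± 0.0752% (SD, n = 3). With n = 3 for each tissue, the share ± SD was 0.0532 ± 0.00513% in retina, 0.220 ± 0.0317% for cephalic tentacle and 0.201 ± 0.0357% for oral tentacle. Summed over the list, the eye stalk libraries were thus close to each other, although single genes were not. Without the 3 most abundant genes the shares were 1.15%, 1.1% and 1.57% in eye stalk replicates 1, 2 and 3. The closeness therefore rested partly on those 3 genes, each of them lowest in replicate 3.

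Most eye stalk genes had moderate levels. The eye stalk mean ran from 1.22 to 1806 CPM with a median of 24.5 CPM. It lay under 10 CPM for 54 genes, from 10 to 100 CPM for 104 and higher for the rest. The 10 most abundant genes made up 41.7% of the summed eye stalk CPM of the list, and the first of them 11.8%.

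**Figure D1:**
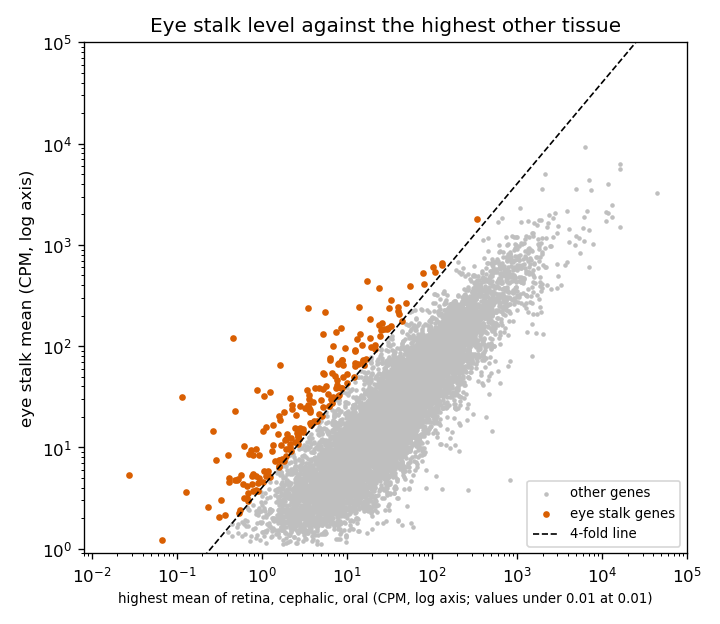
Mean level in eye stalk (vertical, CPM, log axis) against the highest of the retina, cephalic tentacle and oral tentacle means (horizontal, CPM, log axis) for the 14449 genes with at least 1 CPM in each eye stalk library. The 197 eye stalk genes lie on or above the dashed 4-fold line, most of them close to it, with a median ratio of 6.13.

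The tentacles, more than the retina, set how far the eye stalk genes stood out. The next highest tissue was oral tentacle for 95 genes, cephalic tentacle for 71 and retina for 31. The median of their tissue means was 3.03 CPM in oral tentacle, 2.22 CPM in cephalic tentacle and 0.555 CPM in retina. The median ratio of eye stalk to the other tissue was 7.93 for oral tentacle, 9.13 for cephalic tentacle and 43.5 for retina, with tissues at 0 counts set to 3 counts over their libraries.

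Few eye stalk genes were close to absent elsewhere. In 43 genes the mean was under 1 CPM in all 3 other tissues. No gene had 0 counts in all 9 other libraries. Retina was at 0 counts in its 3 libraries for 13 genes and oral tentacle for 2, of which LOC112572217 was at 0 in both, while every eye stalk gene had a count in cephalic tentacle. The ratio to the highest other tissue was at least 8 for 66 genes, at least 16 for 21 and at least 32 for 9, and 61 genes lay between 4 and 5.

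The rule placed similar genes on either side of its threshold. Just inside were LOC112566911 with a ratio of 4.01, LOC112563180 with 4.02 and LOC112559628 with 4.03. Just outside were LOC112568224 with a ratio of 3.997, LOC112559856 with 3.98 and LOC112565700 with 3.97. The last of these, LOC112565700, had 20.4 ± 5.09 CPM in eye stalk and 0.194 ± 0.219 CPM in retina (SD, n = 3 each), and was left out by its 5.14 ± 1.16 CPM in oral tentacle.

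Called by edgeR's quasi-likelihood test at an adjusted p under 0.05, 186 of the 197 were higher in eye stalk than in retina, where 28.2% of the 16811 genes tested were called. Against cephalic tentacle 122 were called higher, with 8.67% of all genes, and against oral tentacle 109, with 11.3%. In all 3 comparisons together, 96 were called, with 2.49% of all genes. These are the contrasts that chose the genes, so nothing is read from the counts. Without cephalic tentacle replicate 2 the number called in all 3 comparisons was 63, with 1.39% of all genes. All 197 genes passed the filter on low counts, which the minimum in eye stalk ensured.

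The most abundant eye stalk gene, LOC112575863, was also present in the tentacles and uneven in the eye stalk. It had 1149, 3815 and 454 CPM in eye stalk replicates 1, 2 and 3. Cephalic tentacle replicates 1, 2 and 3 held 208, 231 and 577 CPM, oral tentacle replicates 247, 187 and 493 CPM, and retina replicates 1, 3 and 4 held 30.4, 6.01 and 18.9 CPM. Eye stalk replicate 3 therefore lay below replicate 3 of both tentacles, and the groups overlap.

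LOC112558125 had 1238, 487 and 254 CPM in eye stalk, against 200, 139 and 57.7 CPM in cephalic tentacle, 18.8, 60.3 and 12.6 CPM in oral tentacle and 24.8, 11.8 and 12.2 CPM in retina. LOC112571941 had 1217, 375 and 314 CPM in eye stalk, with 123, 131 and 143 CPM in cephalic tentacle, 51.2, 76.6 and 39.9 CPM in oral tentacle and 8.55, 2.79 and 14.8 CPM in retina. In both genes replicate 1 was the highest eye stalk library, and all 3 eye stalk libraries lay above the 9 others.

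LOC112574735 had overlapping ranges in retina and the tentacles. It had 520, 406 and 904 CPM in eye stalk, 97.3, 77.6 and 87.5 CPM in retina, 128, 72.2 and 67.1 CPM in cephalic tentacle and 94.6, 120 and 95.4 CPM in oral tentacle. LOC112565317 had 343, 574 and 703 CPM in eye stalk and at most 48.2 CPM in 8 of the other libraries, but 265 CPM in cephalic tentacle replicate 3. In both genes all 3 eye stalk libraries lay above the other 9.

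LOC112559241 was the most even of the abundant genes, with 520, 583 and 469 CPM in eye stalk, a mean of 524 ± 56.9 CPM (SD, n = 3). It had 40.7, 52.6 and 21.1 CPM in retina, 101, 66.2 and 66.2 CPM in cephalic tentacle and 49.9, 49.1 and 50.4 CPM in oral tentacle. Its lowest eye stalk library was 4.65 times the highest of the 9 others.

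The genes with the largest ratios to the highest other tissue, among those with an eye stalk mean of at least 10 CPM, were mostly led by eye stalk replicate 3. LOC112566837, with the largest ratio at 275, had 3.47, 1.71 and 90.2 CPM in eye stalk replicates 1, 2 and 3. It had 11 counts over the retina libraries, 6 over the cephalic and 0 over the oral tentacle libraries. The ratio thus rested on replicate 3, which held 94.6% of its eye stalk CPM.

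LOC112574208 was near background elsewhere and clearly present in every eye stalk library. It had 29.4, 67.2 and 268 CPM in eye stalk, and no other library exceeded 0.776 CPM. The ratio of means was 269, and the lowest eye stalk library was 37.9 times the highest of the other 9. LOC112560839 had 8.57, 5.30 and 30.2 CPM in eye stalk, at most 0.388 CPM in the tentacle libraries and 0 counts in retina, a ratio of 55.3.

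LOC112576011 had 142, 2.94 and 572 CPM in eye stalk and 4.41, 1.98 and 4.17 CPM in retina. Its ratio of means was 67.8, yet eye stalk replicate 2 lay below the 4.98 CPM of oral tentacle replicate 2. LOC112570128 had 35.8, 5.79 and 27.4 CPM in eye stalk and at most 0.946 CPM elsewhere, a ratio of 47.1. LOC112564836 had 3.71, 1.39 and 106 CPM in eye stalk, 0 counts in retina and up to 1.90 CPM in cephalic tentacle, a ratio of 41.6. Of these 3 genes, the eye stalk libraries lay above all others only for LOC112570128.

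**Figure D2:**
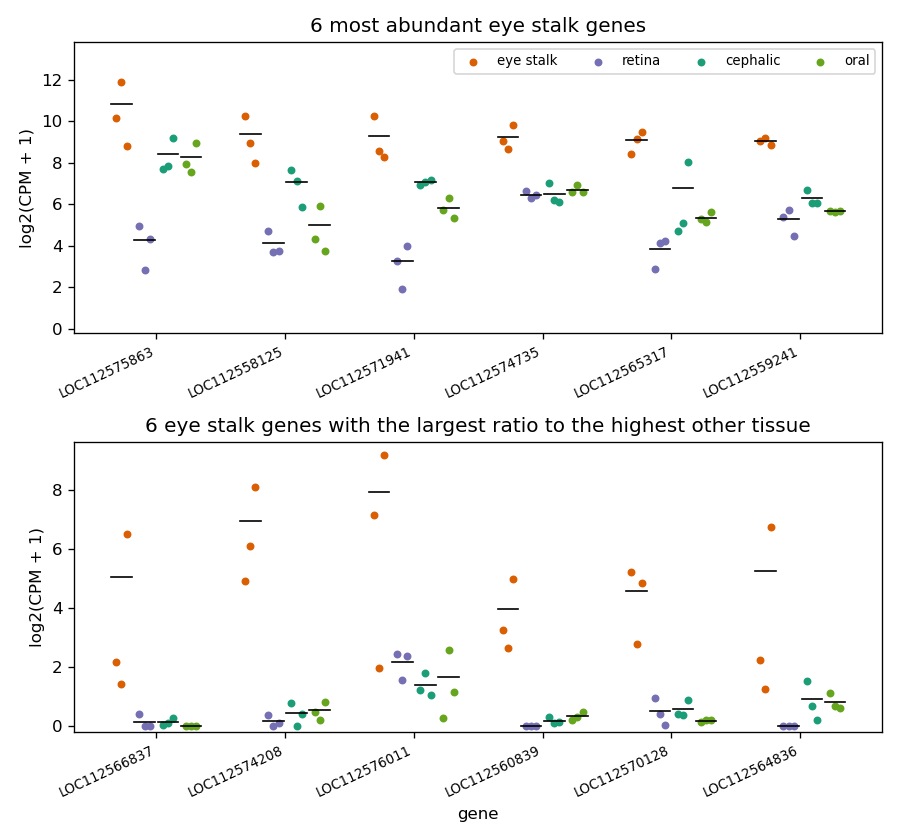
Levels as log2(CPM + 1) in the 12 libraries for the 6 most abundant eye stalk genes (top) and the 6 with the largest ratio to the highest other tissue (bottom); points are libraries and black lines the log2 of the tissue mean CPM plus 1. LOC112559241 has 3 close eye stalk points, whereas LOC112566837 and LOC112564836 each have 1 eye stalk library far above the other 2.

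The eye stalk genes varied more between eye stalk libraries than genes in general. The highest eye stalk library was a median of 3.22 times the lowest, against 1.44 times over all 14449 genes with at least 1 CPM in each eye stalk library. At an eye stalk mean of at least 10 CPM the medians were 3.26 for 143 eye stalk genes and 1.38 for 10760 genes. The spread was under 2-fold for 24.4% of the eye stalk genes and 77.7% of all, and over 10-fold for 18.3% and 1.11%. A rule on the mean admits genes that are high in 1 library, so this is a description of the list.

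More than 50% of a gene's eye stalk CPM lay in a single library for 117 of the 197 genes, 28 of them in replicate 1, 21 in replicate 2 and 68 in replicate 3. More than 80% lay in a single library for 15 genes, and for each of these the library was replicate 3. Of the 36 genes with more than 10-fold between eye stalk libraries, 22 were highest in replicate 3 and 13 were lowest there. Eye stalk replicate 3 was thus at an extreme for 35 of the 36, in either direction. Replicate 1 was highest for 8 and lowest for 7, and replicate 2 highest for 6 and lowest for 16. With 3 libraries, all but 1 are always at an extreme.

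The 4 genes with the largest share in a single library, among those with at least 10 CPM, were LOC112564708 with 95.8%, LOC112564707 with 95.7%, LOC112564836 with 95.4% and LOC112566837 with 94.6%. All 4 were led by replicate 3. LOC112564707 had 34.1, 22.4 and 1254 CPM in eye stalk replicates 1, 2 and 3. The other libraries held 23.2, 10.4 and 3.57 CPM in cephalic tentacle, 21.4, 17.4 and 12.4 CPM in oral tentacle and 0 counts in retina. Eye stalk replicate 2 lay below cephalic tentacle replicate 1, so the groups overlap. The gene's excess over the tentacles was thus carried by replicate 3, and its other eye stalk values were within 4-fold of both tentacle means.

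**Figure D3:**
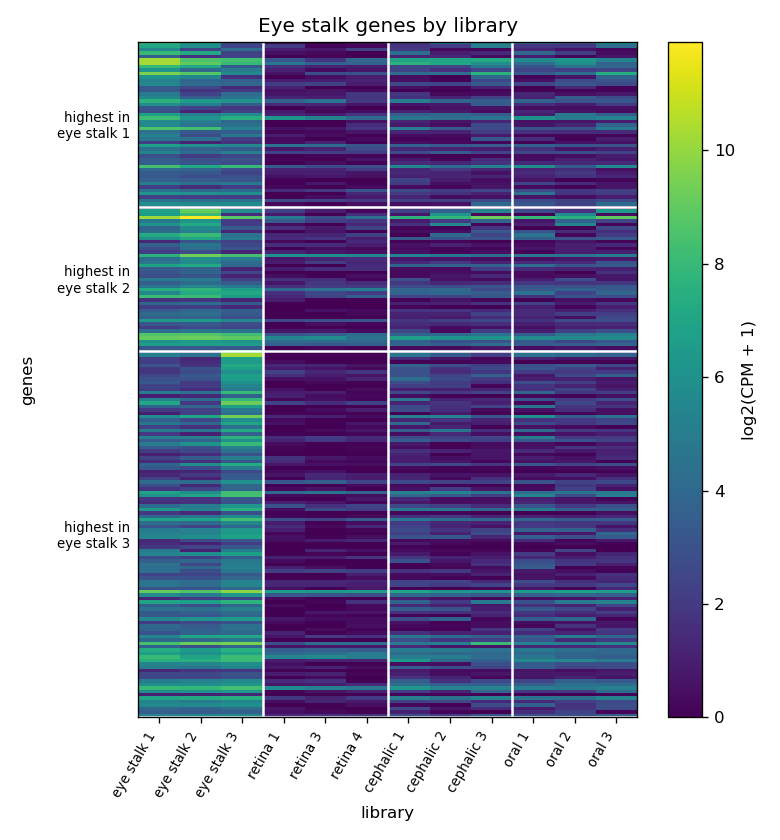
Levels as log2(CPM + 1) (colour) of the 197 eye stalk genes (rows) in the 12 libraries (columns), with rows grouped by the eye stalk library in which the gene was highest and, within a group, sorted by that library's share. The 3 groups hold 48, 42 and 107 genes, and the retina columns are the darkest.

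All 3 eye stalk libraries lay above all 9 others for 145 of the 197 genes, where 5.62% of all genes tested did so. In 52 genes at least 1 eye stalk library lay at or below a library of another tissue. In 33 genes the lowest eye stalk library was at least 4 times the highest of the other 9. Besides LOC112559241 and LOC112574208, these 33 included LOC112554245 and LOC112569873, both chosen after their values were seen. LOC112554245 had 401, 416 and 303 CPM in eye stalk and at most 34.9 CPM elsewhere. LOC112569873 had 97.4, 108 and 101 CPM in eye stalk, a mean of 102 ± 5.40 CPM (SD, n = 3), and at most 19.1 CPM elsewhere. Both had a narrow eye stalk range, unlike the genes led by replicate 3.

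The rule was also applied to pairs of eye stalk libraries and the level read in the third, which it had not used. The scaling over all 12 libraries was kept here, whereas the counts given above for each left-out eye stalk library rescaled the other 11. Chosen on replicates 2 and 3, 213 genes met it, and 116 of them (54.5%) were at least 4 times each other tissue mean in replicate 1. Chosen on replicates 1 and 3, 237 genes met it, and 107 (45.1%) reached 4 times in replicate 2. Chosen on replicates 1 and 2, 198 genes met it, and 95 (48%) reached 4 times in replicate 3.

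The level in the library left aside was above each other tissue mean for 202, 211 and 155 of these genes, or 94.8%, 89% and 78.3%. The median level there was 67.9%, 56% and 58.9% of the mean in the pair that chose the genes. The share above the other tissues was lowest when replicate 3 was the library left aside. The other 9 libraries were the same in each choice, so these shares describe the eye stalk libraries alone and carry no test.

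Retina was compared with the tentacles to ask where, outside the eye stalk, the eye stalk genes were found. The rule limits the level in each of these tissues but does not use the difference between them. Of the 197 genes, 95 were lower in retina than in the tentacle mean (48.2%), where 34% of all genes tested were called lower (edgeR quasi-likelihood test, adjusted p under 0.05). A further 7 were higher in retina (3.55%), where 29.6% of all genes were, and 95 were not called. The median log2 fold change was -2.02 for the eye stalk genes and -0.12 for all genes tested, and the first became -1.98 when the 13 genes without a retina count were set to their bounds. The upper limit that the rule sets on the retina level also keeps genes that are high in retina off the list, so the small number of genes higher in retina is partly fixed by the choice. Of the genes with at least 1 CPM in each eye stalk library, 418 were at least 4 times both tentacles and 2776 at least 4 times retina. The limits can thus also shift the share called lower and the median, and how far was not tested. Both are therefore descriptions beside the values of all genes.

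Among the 95 genes lower in retina the median log2 fold change was -3.79, or -3.62 with genes at 0 counts at their bounds. In 70 of them all 3 retina libraries lay below all 6 tentacle libraries. Among all 197 genes this held for 75, or 38.1%, where 30.1% of all genes tested did so. Of the 13 genes with 0 counts in retina, 11 were called lower.

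The 4 with the largest fitted decrease all had 0 counts in retina, where 3 counts over the libraries stand for 0.0301 CPM. LOC112564707 had 12.4 ± 9.95 CPM in cephalic and 17.1 ± 4.48 CPM in oral tentacle (SD, n = 3 each). Its tentacle mean of 14.7 CPM was at least 489.95-fold more than in retina (edgeR adjusted p = 0.0061). LOC112558835 had 5.09, 1.999 and 3.97 CPM in cephalic tentacle, 24.6, 2.70 and 2.48 CPM in oral tentacle and 12.8, 14.1 and 104 CPM in eye stalk. It was at least 226-fold lower in retina than in the tentacles (edgeR adjusted p = 0.0022), and oral tentacle replicate 1 was above 2 of its eye stalk libraries. Without oral tentacle replicate 1 the bound for LOC112558835 was 108-fold.

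LOC112564708 had 3.43 ± 2.73 CPM in cephalic and 5.28 ± 2.27 CPM in oral tentacle (SD, n = 3 each). It was at least 145-fold lower in retina than its tentacle mean of 4.35 CPM (edgeR adjusted p = 0.013). LOC112574588 had 6.08, 2.59 and 3.41 CPM in cephalic tentacle, 7.67, 1.52 and 3.03 CPM in oral tentacle and 14.8, 15.3 and 23.4 CPM in eye stalk. It was at least 135-fold lower in retina than in the tentacles (edgeR adjusted p = 6.4e-05). A replicate block left retina replicate 4 alone in its block, so retina replicates 1 and 3 set the retina level there. The edgeR adjusted p was then 0.029 for LOC112564707, 0.0075 for LOC112558835, 0.04 for LOC112564708 and 0.00042 for LOC112574588. Of these 4 genes, DESeq2 gave an adjusted p for LOC112574588 only. With retina replicate 3 or 4 left out, fewer retina counts limit the level, and the lower bounds were 327-fold and 319-fold for LOC112564707, 151-fold and 147-fold for LOC112558835, 96.5-fold and 94.3-fold for LOC112564708 and 89.8-fold and 87.7-fold for LOC112574588. These 4 genes were thus expressed in the 3 amputated appendages and undetected in retina, the most deeply sequenced tissue. Of the 6 most abundant eye stalk genes, all but LOC112574735 were also called lower in retina, from -0.71 ± 0.25 for LOC112559241 to -4.13 ± 0.84 for LOC112575863 (log2 fold change ± SE, edgeR adjusted p = 0.030 and 0.0015).

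The 7 genes higher in retina than in the tentacles had log2 fold changes from 0.95 to 2.88, and in each of them retina was the tissue closest to eye stalk. In 5 of the 7 all 3 retina libraries lay above all 6 tentacle libraries, which also held for 5 of all 197 (2.54%, where 25.3% of all genes tested did so). LOC112560137 had 8.11, 2.37 and 3.11 CPM in eye stalk, 0.441, 0.541 and 0.259 CPM in retina and at most 0.112 CPM in the tentacles. The fitted log2 difference was 2.88 ± 0.76 (SE; adjusted p = 0.0068 with edgeR) and rested on 5 counts over the tentacle libraries. Without cephalic tentacle replicate 3 it was 4.27 (edgeR adjusted p = 0.0018).

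LOC112567266 had 19.5, 6.28 and 26.7 CPM in eye stalk and 3.50, 4.39 and 3.51 CPM in retina. It had 2.19, 3.04 and 0.670 CPM in cephalic tentacle and 0.772, 0.338 and 0.0776 CPM in oral tentacle, all below retina. The fitted log2 difference was 2.07 ± 0.59 (SE; adjusted p = 0.011 with edgeR), with an adjusted p of 0.060 under a replicate block.

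LOC112566881 had 165, 221 and 100.03 CPM in eye stalk, 15.9, 21.9 and 34.3 CPM in retina and 5.08 to 15.7 CPM in the tentacles. It was higher in retina by 1.14 ± 0.36 on the log2 scale (SE; adjusted p = 0.017 with edgeR), and without retina replicate 4 it was 0.80 and not called (edgeR adjusted p = 0.098). LOC112553194 had 17.5, 58.5 and 30.2 CPM in eye stalk, 0.631, 1.32 and 1.75 CPM in retina and 0.335 to 0.776 CPM in the tentacles. Its log2 difference of 1.15 ± 0.45 (SE; adjusted p = 0.042 with edgeR) kept its call in 7 of 18 alternatives (adjusted p from 0.018 to 0.20). It lost it without eye stalk replicate 3, retina replicate 3 or 4, oral tentacle replicate 1 or 2, or any 1 cephalic tentacle library. It also lost it with RLE scaling (edgeR adjusted p = 0.052), with the replicate number as a block (0.97, edgeR adjusted p = 0.093) and without both eye stalk replicate 3 and retina replicate 4. Retina replicate 1 of LOC112553194 lay within its tentacle range, so these groups overlap.

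**Figure D4:**
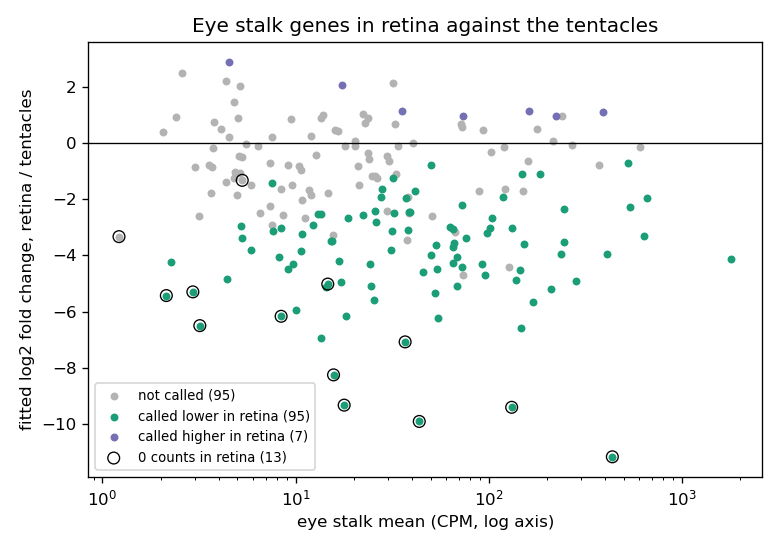
Fitted log2 fold change of retina over the tentacle mean (vertical) against the eye stalk mean (horizontal, CPM, log axis) for the 197 eye stalk genes; circles mark the 13 genes with 0 counts in retina, whose fitted values are no bounds. The 95 genes called lower in retina are found at low and at high eye stalk levels, and the 7 called higher lie between 0.95 and 2.88.

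Cephalic and oral tentacle were compared to ask whether the eye stalk genes differed between the tentacle types. With edgeR's quasi-likelihood test, 0 of the 197 were called higher and 0 lower in cephalic tentacle, where 0.178% of all genes were called in each direction. At an unadjusted p under 0.05 there were 5 in each direction, with no share over all genes given here, so nothing is read from them. DESeq2 called 1 higher and 0 lower, where it called 1.18% and 1.06% of all genes. The median log2 fold change was -0.15 for the eye stalk genes and 0.03 for all genes tested. A difference was thus not detected, which does not show that the levels are equal.

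The tentacle libraries with the same replicate number varied together for the eye stalk genes. Deviations of log2(CPM + 1) from the tissue mean correlated between cephalic and oral tentacle across the 197 genes with r = 0.28, 0.38 and 0.58 for replicates 1, 2 and 3, and across all 16811 genes with r = 0.40, 0.30 and 0.51. Between eye stalk and cephalic tentacle these were -0.30, 0.11 and -0.33 across the 197 genes. Genes are not independent replicates, and the deviations of a tissue sum to 0, so these values are descriptive.

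LOC112567904 and LOC112567906, chosen after their values were seen, illustrate this covariation. LOC112567904 had 71.8 CPM in cephalic tentacle replicate 2 and 51.5 CPM in oral tentacle replicate 2, and at most 0.704 CPM in the 4 other tentacle libraries. LOC112567906 had 48.05 and 46.6 CPM in the same libraries and at most 2.23 CPM in the other 4. In eye stalk replicates 1, 2 and 3 LOC112567904 had 101, 277 and 1.84 CPM and LOC112567906 had 66.2, 153 and 3.43 CPM. Both genes were therefore high in some libraries and low in others of each appendage, and their eye stalk replicate 3 lay below both tentacle libraries numbered 2.

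Eye stalk genes often lay next to each other in the genome. In the gene order of the RefSeq assembly ASM307304v1, 55 of the 197 (27.9%) had another eye stalk gene as an immediate protein-coding neighbour. Among the 14252 other genes with at least 1 CPM in each eye stalk library, 191 (1.34%) had an eye stalk gene as a neighbour. The 55 genes formed 23 runs, with 5 genes in the longest. Among the 33 genes whose lowest eye stalk library was at least 4 times every other library, 12.1% had another of the 33 as a neighbour. No share over other genes was computed for that shorter list. The build behind the counts is not given in the sources used here, so only the order of the genes was used and no positions are given. Whether neighbours are copies that share reads, or overlap each other, was not tested, because no sequences were used here.

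The longest run held LOC112572216, LOC112572217, LOC112572218, LOC112572068 and LOC112572069, in this order. LOC112572218 was the most abundant, with 124, 104 and 208 CPM in eye stalk, 13.0, 3.11 and 30.4 CPM in cephalic tentacle, 7.002, 29.4 and 38.7 CPM in oral tentacle and at most 2.38 CPM in retina. LOC112572069 had 38.2, 36.6 and 88.5 CPM in eye stalk and up to 14.1 CPM in oral tentacle replicate 3, and LOC112572068 had 47.0, 21.9 and 19.96 CPM in eye stalk and up to 12.9 CPM in that library. All 3 were thus shared with the tentacles at lower levels.

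LOC112572216 had 7.41, 13.1 and 4.79 CPM in eye stalk and 0 counts in retina, with 14 counts over the cephalic and 32 over the oral tentacle libraries. LOC112572217 had 2.86, 4.57 and 8.46 CPM in eye stalk and 2 counts in all over the 9 other libraries, both in cephalic tentacle. The 5 genes did not share a pattern over the eye stalk libraries: replicate 3 was highest for 3 of them, replicate 1 for LOC112572068 and replicate 2 for LOC112572216.

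A run of 3 genes, LOC112564836, LOC112564708 and LOC112564707, was tied in length with 5 others and is named here for its summed eye stalk level. All 3 had 0 counts in retina and over 95% of their eye stalk CPM in replicate 3. The ratio of LOC112564708 to LOC112564707 was 0.302, 0.273 and 0.302 in eye stalk replicates 1, 2 and 3, a spread of 1.11-fold, while each gene alone varied 61.8-fold and 55.9-fold. LOC112564708 and LOC112564707 thus moved together across the eye stalk libraries. A gene outside this run, LOC112566837, also moved with LOC112564836. It had 3.47, 1.71 and 90.2 CPM in eye stalk replicates 1, 2 and 3, against 3.71, 1.39 and 106 CPM for LOC112564836. Whether neighbours move together more than other eye stalk genes was not tested.

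Of the 32 pairs of neighbours in the 23 runs, 17 had a ratio that varied less between the eye stalk libraries than either gene of the pair. The median spread of the ratio was 1.91-fold, against 3.04-fold for the genes themselves. In 17 of the 23 runs all genes were highest in the same eye stalk library. Replicate 3 alone was highest for 107 of the 197 eye stalk genes, so agreement also arises between genes that are not neighbours. The same counts were not made for such genes, so nothing is read from these about adjacency. LOC112567946 had 7.18, 7.10 and 14.05 CPM and LOC112567945 7.26, 6.94 and 14.5 CPM in eye stalk, with a ratio between 0.972 and 1.02. By contrast LOC112555731 had 110, 542 and 56.1 CPM and its neighbour LOC112555732 had 13.3, 58.4 and 158 CPM, highest in different libraries. Of the 36 genes with more than 10-fold between eye stalk libraries, 15 had a neighbour on the list.

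**Figure D5:**
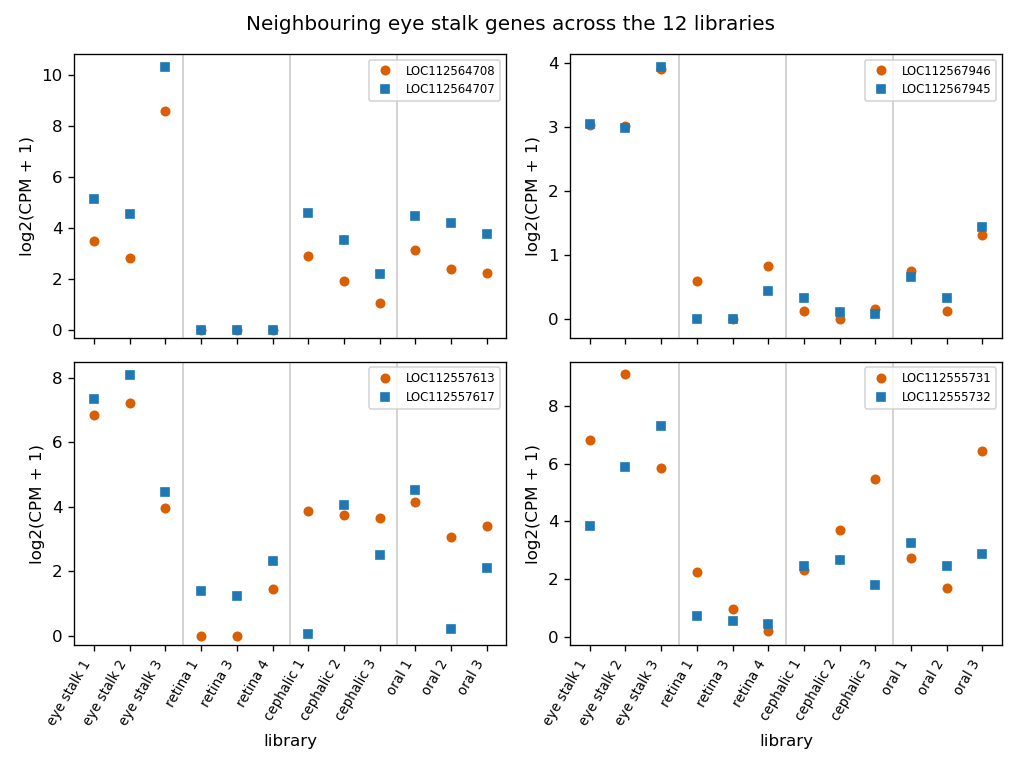
Levels as log2(CPM + 1) in the 12 libraries for 4 pairs of neighbouring eye stalk genes, chosen after their values were seen; circles and squares are the genes of a pair. LOC112567946 and LOC112567945 nearly coincide in the eye stalk libraries and LOC112564708 follows LOC112564707, whereas LOC112555731 and LOC112555732 are highest in different eye stalk libraries.

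The eye stalk genes most like LOC112575863, by Pearson correlation of log2(CPM + 1) over the 12 libraries, were LOC112574439 (r = 0.94), LOC112557613 (0.93), LOC112574539 (0.91), LOC112555122 (0.90) and LOC112576305 (0.89). The rule itself sets eye stalk apart from the other 3 tissues, so these r values are partly high by the choice of the genes. It does not separate retina from the tentacles. LOC112574439 had 125, 155 and 178 CPM in eye stalk, 2.78, 1.29 and 3.05 CPM in retina, and 21.0 to 38.8 CPM in the tentacles. LOC112576305 had 58.0, 59.0 and 78.7 CPM in eye stalk, 0.757, 0.931 and 1.64 CPM in retina, and 10.6 to 19.3 CPM in the tentacles. In both, the eye stalk, tentacle and retina libraries formed 3 separate ranges.

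LOC112557613 had 114, 148 and 14.5 CPM in eye stalk and 7.43 to 16.7 CPM in the tentacles, LOC112555122 had 305, 128 and 7.42 CPM and 2.81 to 65.1 CPM, and LOC112574539 had 16.1, 17.8 and 9.10 CPM and 1.18 to 4.47 CPM. Like LOC112575863 itself, these 3 were lowest in eye stalk replicate 3. LOC112557613 and LOC112555122 were there within their tentacle range, whereas LOC112574539 stayed above it.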

How the data were processed

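Poly(A) RNA of the 4 tissues was extracted with Trizol, per the labels' protocols, and gave 12 libraries. Raw read counts for each gene, as whole numbers, were deposited in a single table. STAR did the alignment, per the submitters' processing notes. How reads were counted, on which strand and with which build and annotation, is not given in the sources used here, so overlapping or duplicated genes may share reads.

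Tissues and replicate numbers come from the sample titles. CPM were computed with TMM factors over all genes (edgeR 4.0.16, R 4.3.3). Genes were tested with edgeR's quasi-likelihood test (robust) in 1 fit of all 12 libraries with tissue as the only term, after filterByExpr with a minimum count of 10. Benjamini-Hochberg adjustment ran over 16811 genes, and standard errors follow from each F statistic. For the tentacles, the cephalic and oral coefficients were averaged. A tissue at 0 counts took a floor of 3 counts over its libraries. Floors cover counting error only.

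Genes were named by a rule: abundance, ratio, distance to the threshold, largest called changes, unevenness, neighbouring runs and likeness. Its part on similar proteins could not be applied and its part on cephalic against oral calls named no gene. Product-based gene lists were not run, because no product names were paired with the genes. The members and lists were chosen with earlier results of these data known. Alternatives were RLE scaling, DESeq2 1.42.0, no low-count filter, a replicate block, other thresholds, thinning and each library left out. The scripts were tested on simulated data.

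Within tissues, every pair of libraries differed beyond sampling noise (chi-square per degree of freedom from 34.02 to 665.9). Retina replicate 4 stood apart, with 665.9 against retina replicate 1 and 527.4 against retina replicate 3. No other pair exceeded 127.4. Same-numbered cephalic and oral tentacle libraries deviated together (r = 0.40, 0.30 and 0.51 across genes), so their numbers were taken to pair them. Eye stalk and retina numbers were not, but the replicate block over all 12 libraries used them as well. Retina replicate 4 stood alone in its block, so the retina level in that fit rests on retina replicates 1 and 3.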

Additional observations from a re-analysis of the deposited data

How the results depend on the processing

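The number of eye stalk genes depended on the rule: it was 653 at 2-fold, 66 at 8-fold, 125 with a minimum of 5 CPM and 33 when the lowest eye stalk library had to be 4 times every other library. It was 193 with RLE scaling, 215 with tissue medians, 203 with libraries thinned to equal totals and 184 to 227 with each library left out. The tissue medians kept 155 of the 197 genes. The percentage with a neighbouring eye stalk gene ran from 24.5 to 30.4 with each library left out and was 12.1 among those 33 genes, and from 26.4 to 31.8 otherwise; the cause was not tested.

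Genes lower in retina than in the tentacles numbered 78 to 98 and genes higher 5 to 8 with each library left out. The shares called over all genes were then 29.8% to 34.3% and 26.5% to 30.5%. DESeq2 gave 104 and 7, where it called 37.8% and 29.3% of all genes. The replicate block over all 12 libraries gave 83 and 6, where 32.1% and 26.7% of all genes were called. The block gave 0 calls in either direction between cephalic and oral tentacle. That comparison stayed at 0 with the block in the tentacle libraries alone and with each library left out. DESeq2 called 1 higher in cephalic tentacle, where it called 1.18% of all genes. Calls in eye stalk over all 3 tissues numbered 63 to 105 with each library left out, where 1.39% to 2.99% of all genes were called. They numbered 94 with the block (2.44% of all genes) and 133 with DESeq2 (3.5%). Without both eye stalk replicate 3 and retina replicate 4 the rule found 213 genes, 141 of them among the 197.

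Of the 8 genes named for retina against tentacles, 5 kept their call in every alternative that gave an adjusted p. Among these 5, DESeq2 gave no adjusted p for LOC112564707, LOC112558835 and LOC112564708, so their calls rest on edgeR alone. LOC112567266 lost its call under the block, LOC112566881 without retina replicate 4 (alone or with eye stalk replicate 3), and LOC112553194 in 11 of 18. None of the 8 changed sign in an alternative that gave an adjusted p. TMM factors after the low-count filter, the block in the tentacle libraries alone, the left-out pair, the bounds with a library left out and the alternatives for neighbours were chosen after seeing the data.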
